A study of Homo sapiens with 2 samples.

Results

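The EGF family ligands and their ERBB receptors were followed in MRC-5 cells, an established fibroblast line from human fetal lung, after silencing of periostin. The group was made up of 9 genes out of 21743 that could be named on the array, chosen by name with earlier results of these data known. It held 6 ligands (HBEGF, AREG, EREG, TGFA, NRG1 and BTC) and 3 receptors (EGFR, ERBB2 and ERBB3). They were read by 16 probes on 25 spots, each assigned to its gene through a RefSeq accession. RNA came from 1 culture treated with periostin siRNA (10 nM for 48 h) and 1 culture treated with control siRNA, whose dose and time were not given in the sources used here, and both were transfected with the same lipid reagent. Each culture was hybridized to 1 single-colour array, so culture, array and condition cannot be told apart, the conditions could not be tested against each other, and every difference is a measured value without a replicate check. In a bulk culture, fewer cells of a type and less RNA per cell cannot be told apart either.

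Signals are background-subtracted spot intensities scaled to a common 75th percentile. At least 58.0% of the 58717 spots on each array were well above background and 0 spots were saturated. POSTN, the target of the siRNA, had a signal of 2638 with control siRNA and 280 with periostin siRNA, for a log2 ratio of -3.24 (propagated spot error 0.20.) All 9 fibroblast markers examined, among them COL1A1, DCN and VIM, were well above background on both arrays with log2 ratios between -0.90 and 0.83. Of 8 epithelial markers, CDH1, KRT5, KRT14, SFTPB and NKX2-1 were below background on both arrays, whereas EPCAM went from 34.6 to 135, for a log2 ratio of 1.97, and the summed signal of the list went from 90.6 to 220. SFTPC, from 33.8 to 53.3, and ESRP1, from 11.2 to 13.4, were also well above background on both arrays. Of 5 endothelial markers, PECAM1 and TIE1 were below background on both arrays and the summed signal went from 158 to 159. CDH5, VWF and CLDN5 were well above background on both arrays, with log2 ratios between -0.18 and 0.15. Of 8 immune markers, MS4A1, S100A8, LAPTM5 and HLA-DRA were below background on both, and the summed signal went from 127 to 125. CORO1A, from 89.9 to 66.6, and the brightest PTPRC probe, from 17.6 to 25.1, were well above background on both arrays. CD74 and CD3E were so with periostin siRNA alone. Whether cells of another type had a part in the results was not tested.

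The ligands of this family are made as membrane-anchored precursors and are released by ADAM proteases. They bind the extracellular part of EGFR, ERBB3 or ERBB4, and the receptors then pair with each other, ERBB2 serving as a partner without a ligand of its own and ERBB3 as a partner with very weak kinase activity. The paired receptors signal through the RAS-ERK and PI3K-AKT routes, and in lung fibroblasts this signalling is known for its part in growth and in the exchange of signals with the epithelium.

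The transcripts of 2 ligands were lower by more than 3-fold with periostin siRNA, and no receptor differed by that much. AREG was 10.3-fold lower and HBEGF 7.73-fold lower, and TGFA was close to its control level. By less than 3-fold, EREG was 2.07-fold and NRG1 1.86-fold lower, and the receptor ERBB2 was 1.87-fold higher. BTC was below background on both arrays. Of the 8 members with a ratio, 2 were lower by more than 3-fold and 0 were higher, while over the 16052 genes with a ratio 2.75% were lower and 3.37% were higher by that much. Past 2-fold, 3 members were lower and 0 higher, against 6.42% and 7.97% of all genes. As the members were chosen with earlier results of these data known, these counts do not test the family against all genes. The median log2 ratio of the 8 members was -0.57, that of the 5 measured ligands was -1.05 and that of the 3 receptors was 0.27, and the median over all genes was 0.06.

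**Figure D1:**
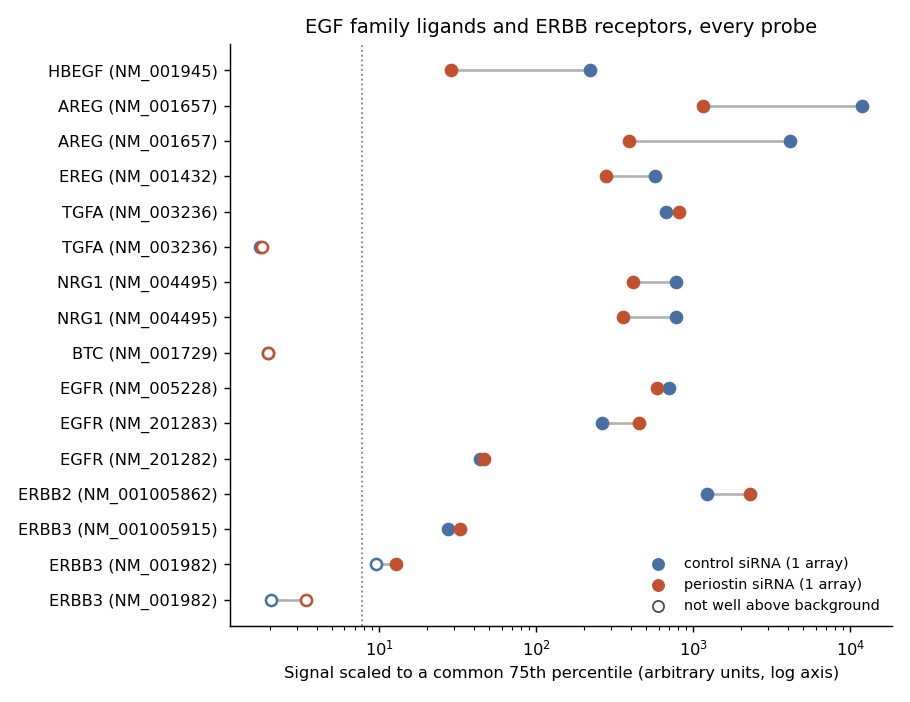
Scaled signal of each of the 16 probes of the 9 genes (log axis, arbitrary units) with control siRNA (blue) and periostin siRNA (orange), 1 array each, the accession of the probe's transcript in brackets. Filled points were well above background and open points were not, and the dotted line marks the lowest signal well above background, the higher of the values of both arrays. Both AREG probes and the HBEGF probe show the widest gaps, while BTC lies below background on both arrays.

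Amphiregulin (AREG) and epiregulin (EREG) are ligands of EGFR, and their genes stand next to each other on chromosome 4, in the order EPGN, EREG, AREG and BTC with no other protein-coding gene between them in the RefSeq annotation. Heparin-binding EGF-like growth factor (HBEGF), which binds EGFR and ERBB4, lies on chromosome 5. The stretches of 250 bases before the annotated starts of AREG (chr4:74444886-74445135, plus strand), EREG (chr4:74364895-74365144, plus strand) and HBEGF (chr5:140346604-140346853, minus strand) are shown, because these were the ligands with the lowest ratios by their brightest probes, from the RefSeq annotation of GRCh38.p14. The second NRG1 probe, at -1.13, was lower than EREG at -1.05, and the stretch before NRG1 was not searched. Capitals mark the cAMP response element TGACGTCA and the TATA box TATAAA in AREG, the shorter motif TGACG and TATAAA in EREG, and the GC box GGGCGG in HBEGF, where a match on the other strand reads as its reverse complement.
AREG: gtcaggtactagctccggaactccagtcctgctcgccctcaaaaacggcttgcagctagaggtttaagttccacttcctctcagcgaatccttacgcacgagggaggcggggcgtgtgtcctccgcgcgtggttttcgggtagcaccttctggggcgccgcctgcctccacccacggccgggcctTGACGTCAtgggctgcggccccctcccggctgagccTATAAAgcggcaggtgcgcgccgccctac
EREG: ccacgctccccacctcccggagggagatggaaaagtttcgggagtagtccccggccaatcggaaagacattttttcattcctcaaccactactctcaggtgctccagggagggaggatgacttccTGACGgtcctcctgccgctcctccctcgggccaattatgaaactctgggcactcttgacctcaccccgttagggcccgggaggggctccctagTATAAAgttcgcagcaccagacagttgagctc
HBEGF: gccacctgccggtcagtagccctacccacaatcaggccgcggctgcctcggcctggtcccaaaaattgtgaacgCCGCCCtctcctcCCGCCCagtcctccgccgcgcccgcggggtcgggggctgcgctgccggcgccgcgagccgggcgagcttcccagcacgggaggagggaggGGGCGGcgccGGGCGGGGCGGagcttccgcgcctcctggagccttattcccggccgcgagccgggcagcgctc

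On either strand of the same stretch of 250 bases, TGACGTCA was present in 1.65% of 35114 annotated promoters, TGACG, which TGACGTCA contains, in 21.2%, TATAAA in 10.7% and GGGCGG in 42.6%. AREG held the full cAMP response element, 65 to 58 bases before the start, and a TATA box 29 to 24 bases before it. EREG held TGACG 125 to 121 bases before the start and a TATA box 32 to 27 bases before it. HBEGF held 5 matches to the GC box and no TATAAA. The AP-1 motif TGANTCA, found in 6.57% of promoters, had no match in these 3 stretches, whereas EGFR and ERBB2 each held at least 1 match. The shorter motif, the TATA box and the GC box were not limited to the genes for which they are marked. TGFA and EGFR each had 2 annotated starts. TGFA held TGACG 154 to 150 bases before a start, and GC boxes before at least 1 start. In EGFR the GC boxes lay before 1 start, and TATAAA and the AP-1 matches lay before the other. AREG also held an unmarked GC box, 9 to 4 bases before its start. A match describes the letters of the sequence and says nothing about binding in these cells.

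AREG was read by a pair of probes for the same accession. The first probe had a signal of 11910 with control siRNA and 1152 with periostin siRNA, and the second 4102 and 390. The log2 ratios were -3.37 and -3.40, each with a propagated spot error of 0.20, so the probes differed by 0.03. Among 3987 genes with 2 or more probes well above background on both arrays, the median gap between the highest and the lowest ratio was 0.23. Of the 14957 genes well above background on both arrays, 42 had a ratio at or below that of the brighter AREG probe, AREG included.

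HBEGF was read by 1 spot, with a signal of 220 with control siRNA and 28.4 with periostin siRNA. The log2 ratio was -2.95 (propagated spot error 0.22), and 71 genes, HBEGF included, were at or below it. The remaining signal was dim. Among the spots of 50 replicate-printed probes nearest in mean log2 signal of both arrays, the SD of the log2 ratio was 0.21. That mean lies above the remaining signal, and for the ERBB3 probe, at 27.2 and 32.9, the same SD was 0.30. The normexp background correction, which adds an offset of 50 to both arrays, gave -1.76, still past 3-fold.

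EREG, also read by 1 spot, had a signal of 574 with control siRNA and 277 with periostin siRNA. Its log2 ratio was -1.05 (propagated spot error 0.20), and 5.41% of genes were at or below it. Under the normexp correction it was -0.89 and thus no longer past 2-fold. Of the neighbours on chromosome 4, AREG was thus at -3.37 and EREG at -1.05, and for EPGN and BTC no ratio can be given. EPGN had a signal of 2.04 with control siRNA and a lower one with periostin siRNA, and BTC had 1.96 on both arrays, whereas the lowest signal well above background was 7.55 for control siRNA and 7.77 for periostin siRNA.

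Neuregulin 1 (NRG1), a ligand of ERBB3 and ERBB4, was read by a pair of probes for the same accession. One had a signal of 774 with control siRNA and 415 with periostin siRNA, for a log2 ratio of -0.90, and the other 777 and 356, for a log2 ratio of -1.13, each with a propagated spot error of 0.20. Both were lower with periostin siRNA, by 1.86-fold and 2.19-fold, so that the call past 2-fold depended on the probe. The gap of 0.23 between them was met or exceeded by 50.6% of the genes with several probes.

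TGFA, a ligand of EGFR, had a signal of 669 with control siRNA and 810 with periostin siRNA, for a log2 ratio of 0.28 (propagated spot error 0.20.) Its second probe had signals of 1.75 and 1.78 and was below background on both arrays. The ratio of TGFA stayed between 0.15 and 0.32 under all 12 ways of processing, and 31.9% of genes were at or above 0.28.

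**Figure D2:**
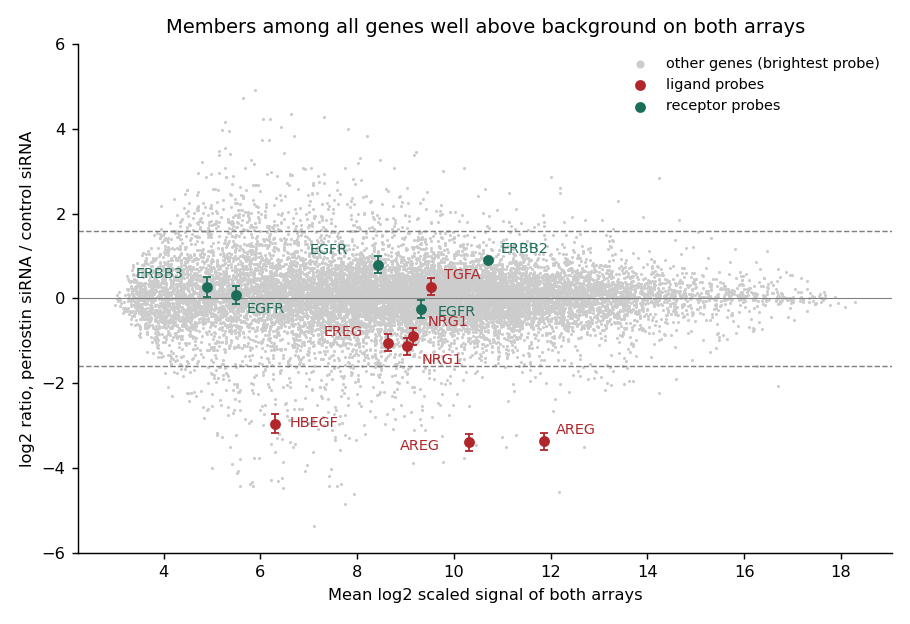
Log2 ratio (periostin siRNA over control siRNA) against the mean log2 scaled signal, for the 14957 genes well above background on both arrays (grey, brightest probe) and for every ligand (red) and receptor (green) probe that was well above background on both. Bars are the SD over 10 spots for ERBB2 and the propagated spot error for the other probes, and dashed lines mark 3-fold. The AREG probes at -3.37 and -3.40 and the HBEGF probe at -2.95 lie under the lower line, and the other probes lie between the lines.

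Among the receptors, ERBB2 differed most from its control level, with a propagated spot error of 0.20. Its probe was printed 10 times. The signal of these spots ran from 1141 over a median of 1230 to 1284 with control siRNA, and from 2170 over a median of 2256 to 2466 with periostin siRNA. The spots of the arrays did not overlap. The log2 ratio was 0.90 ± 0.05 (SD over 10 spots), 1.87-fold higher with periostin siRNA, and 8.30% of genes were at or above it. These spots share 1 culture and 1 array per condition, so the SD covers the spots and not the cultures.

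EGFR, the receptor of AREG, EREG, HBEGF and TGFA, gave different values by transcript. The probe for NM_005228, the transcript of the full-length receptor, had a signal of 695 with control siRNA and 584 with periostin siRNA, for a log2 ratio of -0.25. The probe for NM_201283, a shorter transcript that ends within the extracellular part, had a signal of 261 and 453, for a log2 ratio of 0.80. The probe for NM_201282, another short transcript, had a signal of 43.9 and 46.6, for a log2 ratio of 0.08. The propagated spot errors were 0.20, 0.20 and 0.22. The probes for the full-length transcript and for NM_201283 thus lay on opposite sides of 0 with a gap of 1.05, and 6.07% of genes with several probes had a gap of that size or more. With the mean over its probes in place of the brightest, EGFR had a log2 ratio of 0.21. Which transcripts each probe binds could not be checked, since the probe sequences were not used here.

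ERBB3 was dim. The brightest of its 3 probes, for NM_001005915, a short transcript, had a signal of 27.2 with control siRNA and 32.9 with periostin siRNA, for a log2 ratio of 0.27 (propagated spot error 0.24), and replicate spots of like brightness had an SD of 0.30. Of the probes for the full-length transcript NM_001982, the first was well above background with periostin siRNA alone, at 12.8, and at least 1.35-fold higher than the 9.52 seen with control siRNA. The second, at 2.05 and 3.43, was below background on both arrays. The difference in ERBB3 was within the SD of replicate spots of that brightness.

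The remaining genes of the family were at or near background, and most of their values are bounds. NRG2 was well above background with periostin siRNA alone, at 23.2, and was at least 3.08-fold higher, although quantile normalization, loess, the median scaling and the normexp correction each took it under 3-fold. ERBB4 was well above background with control siRNA alone, at 16.5, and was at least 2.12-fold lower by that probe, while the other probe for it was not well above background on either array. EGF was well above background with periostin siRNA alone, at 9.34, and was at least 1.24-fold higher. NRG4 had a signal of 14.7 with control siRNA and 18.8 with periostin siRNA, for a log2 ratio of 0.36 (propagated spot error 0.32.) NRG3 and EPGN were below background on both arrays.

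The genes that release the ligands or regulate that release were all measured, and 1 of 8 was lower by more than 3-fold and 1 was higher, against 2.75% and 3.37% of all genes. RHBDF2 codes for iRhom2, which carries ADAM17 to the cell surface and steers its choice of substrate. It had a signal of 289 with control siRNA and 1475 with periostin siRNA, for a log2 ratio of 2.35 (propagated spot error 0.20), which was at least 2.13 under every way of processing. ADAM17, the main sheddase of AREG, EREG, HBEGF and TGFA, had a signal of 461 and 647, for a log2 ratio of 0.49. TIMP3, a tissue inhibitor of metalloproteinases that also blocks ADAM17, had a signal of 6341 and 10618, for a log2 ratio of 0.74. ADAM12, which can also release HBEGF, had a signal of 244 and 74.8, for a log2 ratio of -1.70. Its other probes gave -0.97 and -0.41, and with the mean over the probes or the normexp correction it was not past 3-fold. ADAM10, the main sheddase of BTC and EGF, had a log2 ratio of -0.24, ADAM9 0.21, RHBDF1 -0.11 and FRMD8, which stabilizes the iRhoms, -0.19.

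Genes acting at the receptors and in the routes downstream had list medians close to the 0.06 of all genes. Past 3-fold, 2.75% of all genes were lower and 3.37% higher, and past 2-fold 6.42% and 7.97%. Counts of 0 in lists this short are near those shares. Of 10 inhibitors and regulators of the receptors, 0 were past 3-fold or 2-fold in either direction, with a median log2 ratio of 0.07. They ran from ERRFI1, an inhibitor of the EGFR kinase, at -0.29 to LRIG3, of a family of receptor-binding transmembrane proteins, at 0.76. Of 18 genes of the RAS-ERK cascade, 0 were past 3-fold, 1 was lower and 0 higher past 2-fold, and the median was -0.06. The lowest was PTPN11, a phosphatase that ERBB receptors use to activate RAS, at -1.15 ± 0.05 (SD over 10 spots), and its other probes gave -1.08 and -1.30. The highest was MAPK3, which codes for ERK1, at 0.45 ± 0.06 (SD over 10 spots). Of 9 genes of the PI3K-AKT arm, 0 were past 3-fold or 2-fold and the median was -0.06, with PIK3CB, a catalytic subunit, lowest at -0.69.

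A different picture was seen for genes whose transcription ERK signalling raises, many of which code for feedback inhibitors of the same route. Of 15 such genes, in a list drawn up with earlier results of these data known, 3 were lower and 0 higher by more than 3-fold, and 8 were lower and 0 higher by more than 2-fold, against 2.75%, 3.37%, 6.42% and 7.97% of all genes in the same order. Their median log2 ratio was -1.23, with 10 genes below 0 and 5 above it. ETV4, an ETS transcription factor, had a signal of 149 with control siRNA and 35.0 with periostin siRNA, for a log2 ratio of -2.09. SPRY2 and SPRY4, inhibitors of receptor signalling to RAS, had log2 ratios of -1.77 and -1.72, from 1315 to 387 and from 527 to 160, while the second SPRY4 probe gave -0.73.

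The other genes past 2-fold were named, like CCND1, after their values were seen, and were DUSP6, a phosphatase that switches ERK off, at -1.58, SPRED1, an inhibitor of RAS signalling, at -1.56, PHLDA1 at -1.49, ETV5 at -1.25 and FOSL1, an AP-1 subunit, at -1.23. The highest of the list was DUSP4, a related phosphatase, from 198 to 342, for a log2 ratio of 0.79. Also named after their values were seen, the others above 0 were SPRY1 at 0.33, EPHA4 at 0.32, DUSP5 at 0.22 and EPHA2 at 0.20. CCND1, at -0.07 ± 0.05 (SD over 10 spots), was close to its control level. The number lower by more than 3-fold was 6 under the median scaling and 1 under the normexp correction, whereas 7 or 8 were lower by more than 2-fold under all 12 ways of processing.

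**Figure D3:**
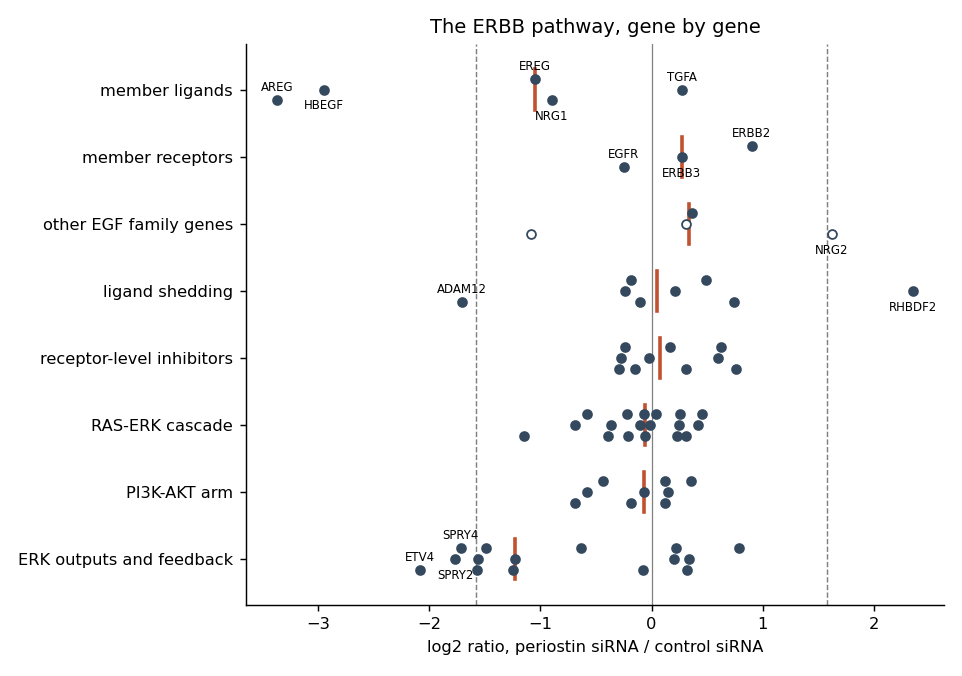
Log2 ratio (periostin siRNA over control siRNA) for each measured gene of the family and of the lists of pathway genes (points, 1 array per condition; open points are bounds). Orange bars are list medians and dashed lines mark 3-fold. The medians lie between -0.06 and 0.34 for all groups of genes except the member ligands at -1.05 and the ERK outputs and feedback genes at -1.23.

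Across the 12 ways of processing, AREG and HBEGF stayed past 3-fold and no other member reached it. AREG ranged from -3.50 to -3.33 and HBEGF from -3.08 to -1.76. EREG ranged from -1.18 to -0.89, NRG1 from -1.03 to -0.85, ERBB2 from 0.78 to 0.95 and ERBB3 from 0.14 to 0.35, each without a change of sign. EGFR, from -0.38 to 0.21, was the only member whose sign changed.

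**Figure D4:**
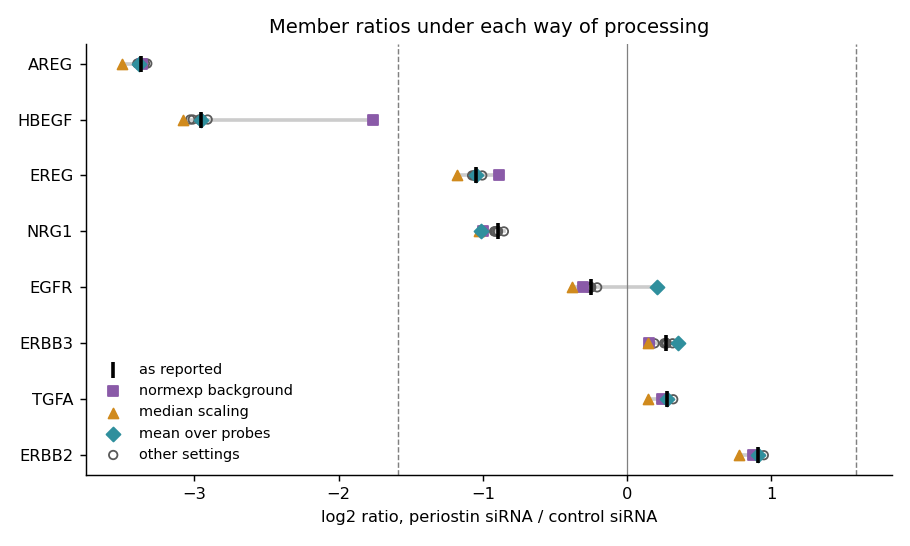
Log2 ratio (periostin siRNA over control siRNA) of the 8 members with a ratio, as reported (black bars) and under the 11 other ways of processing (symbols), with dashed lines at 3-fold. The widest range is that of HBEGF, where the normexp correction gives -1.76 in place of -2.95, and EGFR crosses 0 when its probes are averaged.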

How the data were processed

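RNA of MRC-5 cells was labelled with Cy3 and hybridized to 1 single-colour Agilent array per condition. Scanner output was deposited by the authors for both arrays, with intensity values that Feature Extraction (11.5.1.1 per the file headers, 12.0.3.1 per the submitters' processing notes) had background-subtracted and detrended but not scaled between arrays. A table of normalized intensity, also deposited, equals the scanner values of probes printed once after multiplication by 3.65 (control siRNA) or 3.54 (periostin siRNA); the method of normalization is not given in the sources used here. The array was annotated on hg19, and gene names were taken from RefSeq of GRCh38.p14, which matched 65.1% of the 58717 non-control spots by accession.

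The log2 of the processed signal was scaled to the 75th percentile of each array (372 with control siRNA and 383 with periostin siRNA), set to a common 377. Log2 values of a probe's spots were averaged, and each gene was represented by its brightest probe. A probe was well above background where no fewer spots had the flag than lacked it. Where this held on 1 array alone, the ratio is a bound, for which the dim side was raised to the lowest signal well above background if it lay under that. Levels of different probes were not compared. The number of arrays limits the precision. Errors cover spots only: the SD over a probe's spots or, for a single spot, the propagated error of Feature Extraction. Genes past 3-fold, the threshold of the study, were counted, and no significance test was run. The code for the fold calls was tested on simulated data. Only bright genes were changed there, each by a large fold, so changes in dim genes and changes near 3-fold were not covered.

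The members and lists were chosen with earlier results of these data known. All members are named with every probe; of the lists, the genes of the family and of shedding are all named, and otherwise those past 3-fold and the highest and lowest, with markers given by counts and ranges. A gene that this rule would name is not reported here. With 2 arrays no genes of like pattern can be named. Python 3.11.15, numpy 2.4.6, pandas 2.3.3, matplotlib 3.10.9, R 4.3.3 and limma 3.58.1 were used. The alternatives were normexp background correction on the median spot signal (offset 50), quantile normalization, unscaled values, scaling on spike-in probes, on spots well above background or on the median, loess (span 0.3), the deposited table, the mean over probes, filters on dim and flagged spots, and thresholds of 2-fold and 4-fold.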

Additional observations from a re-analysis of the deposited data

How the results depend on the processing

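No paired analysis was possible because the conditions were single arrays, which also leaves no replicate to omit. The count of members past 3-fold, 2 lower and 0 higher, was the same under every alternative but the 2-fold threshold, where EREG made it 3 lower, and their median moved beyond the spot SD only with the mean over probes, to -0.40. EGFR was at 0.21 with the mean over probes, against -0.25 with the brightest, which follows from the opposite signs of its probes. The normexp correction gave 190 lower and 143 higher genes past 3-fold in place of 441 and 541, so that 42.9% rather than 55.1% of the calls were higher ones, and a POSTN log2 ratio of -2.99; its offset pulls dim probes towards 0 by construction. Median scaling moved the median of all genes by -0.13, and HBEGF, AREG, EREG and NRG1 remained below 0 and ERBB2, ERBB3 and TGFA above it. Of the 64 measured pathway genes, 4 were lower and 2 higher by more than 3-fold. These counts were 1 and 1 under normexp, and 7 and 1 under median scaling, while 2 were lower with the mean over probes. Only 1 was higher under quantile normalization, loess and the filter on dim probes, where NRG2, a bound, was under 3-fold or left out. Of the ERK outputs and feedback genes, 3 were lower; this was 1 under normexp, 6 under median scaling and 5 under loess, and the cause was not tested. At 2-fold, 1031 genes were lower and 1279 higher, with 11 pathway genes lower; at 4-fold, 274 and 278 genes, with 1 pathway gene lower and 1 higher. Signal over background limited BTC, EPGN and NRG3, which gave no ratio, and NRG2, ERBB4 and EGF, which gave bounds.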
